A study of Mus musculus with 40 samples.

Results

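The imprinted Dlk1-Dio3 cluster was followed through its 6 main genes in E14tg2a, an embryonic stem cell line of the mouse. Meg3, Rian and Mirg are long noncoding RNAs, and Dlk1, Rtl1 and Dio3 encode proteins. They were taken by symbol, which gave 6 of 55276 rows in a table of genotypes, 6 of 55291 rows in a table on Pramel7 and 6 of 55276 rows in a time course, and all 6 passed the filter on low counts in each table. The values are raw read counts per gene from 34 RNA libraries, with 2 libraries in every group except one of 4. The series asks how the corepressor CtBP, encoded by Ctbp1 and Ctbp2, acts on the 2-cell-like state of these cells and which part of this needs the transcription factor Dux. The genotype table holds WT cells, cells without Ctbp1 and Ctbp2 (CtbpDKO), cells without Dux (DuxKO), cells without all of these (Ctbp_DuxTKO), a Dppa2 knockout (Dppa2KO), and a knockout named DKO_Dppa2_KO in its description and Dppa2_DuxTKO in its title. Ctbp1 had 4 and 0 counts in the last pair, against 1911 and 2109 in WT, so the name from the description is used. The Pramel7 table holds 4 WT libraries, DuxKO, Pramel7 overexpression (P7OE), the same overexpression in DuxKO cells (DuxKO_P7OE) and P7KO, in which Pramel7 is knocked out. In the time course are CtbpDKO cells labelled with Dox and day 0, 3, 9, 12 or 18. All cells were kept in GMEM with serum and LIF. The labels do not say how any allele or transgene was made, what drives the overexpression, whether a line is 1 clone, or whether 2 libraries of a group came from separate cultures. P-values therefore measure only the spread between these libraries, and a genotype and the clone that carries it cannot be told apart.

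Imprinted genes are expressed from the copy inherited from 1 parent. In this cluster the maternal copy gives Meg3, Rian, Mirg and the small RNAs processed from the same long transcripts, and the paternal copy gives Dlk1, Rtl1 and Dio3. A methylation mark on the paternal copy between Dlk1 and Meg3, the intergenic differentially methylated region, keeps the 2 copies apart, and silencing of the maternal RNAs is a known variation among mouse pluripotent lines. DLK1 is a transmembrane protein related to the Delta ligands of Notch, RTL1 is a retrotransposon-derived protein needed in placenta and muscle, and DIO3 is the enzyme that inactivates thyroid hormone. Meg3 gives a nuclear RNA, Rian is the host of C/D box small nucleolar RNAs, and Mirg is the host of a long array of microRNAs.

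In RefSeq (assembly GRCm38.p6, the mm10 build) the genes lie on chromosome 12 in the order Dlk1 (109452485 to 109463336), Meg3 (109540996 to 109571729), Rtl1 (109564900 to 109604418), Rian (109603945 to 109661716), Mirg (109734981 to 109749458) and Dio3 (110279230 to 110281097). The stretch from the start of Dlk1 to the end of Dio3 is 828613 bp long. The Rtl1 span overlaps Meg3 by 6830 bp and Rian by 474 bp. Rtl1 is also transcribed opposite to the maternal RNA that runs through it. Whether the counting used strand is not stated, so reads counted for Rtl1 cannot be told apart from those of the maternal transcript. The windows around the starts of Meg3, Rian, Mirg and Dio3 are shown because the RNAs of the first 3 genes were low in the same lines and that of Dio3 was not. Each runs from 250 bases before to 50 bases after the RefSeq start on the plus strand, and capitals mark CpG dinucleotides, the sites of DNA methylation.
Meg3, chr12:109540746-109541045: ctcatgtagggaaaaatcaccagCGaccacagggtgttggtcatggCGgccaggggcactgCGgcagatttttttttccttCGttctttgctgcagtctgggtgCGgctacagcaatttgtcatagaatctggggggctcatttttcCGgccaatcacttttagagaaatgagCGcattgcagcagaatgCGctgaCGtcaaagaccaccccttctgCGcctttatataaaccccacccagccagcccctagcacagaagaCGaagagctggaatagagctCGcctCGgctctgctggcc
Rian, chr12:109603695-109603994: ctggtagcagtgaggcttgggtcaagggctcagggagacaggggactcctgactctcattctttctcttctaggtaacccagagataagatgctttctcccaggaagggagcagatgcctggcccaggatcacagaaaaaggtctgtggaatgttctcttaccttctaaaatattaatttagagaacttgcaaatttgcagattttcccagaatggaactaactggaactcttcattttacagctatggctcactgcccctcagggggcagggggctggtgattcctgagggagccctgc
Mirg, chr12:109734731-109735030: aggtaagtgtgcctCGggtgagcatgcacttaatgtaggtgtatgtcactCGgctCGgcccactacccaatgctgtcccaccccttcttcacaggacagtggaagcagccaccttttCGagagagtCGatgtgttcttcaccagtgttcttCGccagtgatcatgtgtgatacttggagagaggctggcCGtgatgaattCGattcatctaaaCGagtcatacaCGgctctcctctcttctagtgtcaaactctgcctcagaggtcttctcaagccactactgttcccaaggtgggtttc
Dio3, chr12:110278980-110279279: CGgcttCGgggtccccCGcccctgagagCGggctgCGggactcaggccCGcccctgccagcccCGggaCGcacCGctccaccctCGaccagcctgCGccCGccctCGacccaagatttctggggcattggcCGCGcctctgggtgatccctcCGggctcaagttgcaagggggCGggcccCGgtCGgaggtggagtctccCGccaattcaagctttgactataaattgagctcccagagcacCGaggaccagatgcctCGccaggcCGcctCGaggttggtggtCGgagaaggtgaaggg
The Meg3 window holds 13 CpG dinucleotides, that of Rian 0, that of Mirg 10 and that of Dio3 25, where the median over 32851 RefSeq windows of the same length is 7. Short motifs were searched on both strands. TGCCGC, the core bound by the imprint protein ZFP57 when methylated, has 1 match in the Meg3 window on the reverse strand and stands in 11.6% of all windows. TGACGTCA, the cAMP response element, has 1 match in the Meg3 window, which starts 57 bases before the start of the gene, and stands in 1.79% of all windows. TATAAA, which overlaps neither motif, has 2 matches in the Meg3 window, which overlap each other on opposite strands, and 1 in that of Dio3, and stands in 13.6% of all windows. None of the 3 motifs has a match in the windows of Rian, Mirg or Dlk1, and no window is held here for Rtl1. A match is a string of letters and was not tested for binding.

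RefSeq places 61 microRNA genes of the tables inside the cluster. The mature forms below belong to the 6 rows with the most counts over all libraries, 1 form each, with bases 2 to 8, the seed that pairs with targets, in capitals.
miR-668-3p: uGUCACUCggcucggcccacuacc
miR-410-3p: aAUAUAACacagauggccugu
miR-382-5p: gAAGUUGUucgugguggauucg
miR-127-3p: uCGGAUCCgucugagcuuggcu
miR-1906: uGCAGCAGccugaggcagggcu
miR-431-5p: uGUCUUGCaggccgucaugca
All 6 are encoded on the plus strand. MiR-1906 lies within the Meg3 span, miR-127 and miR-431 within the Rtl1 span and miR-410 within Mirg, while miR-668 and miR-382 lie in none of the 6 gene spans, just before Mirg. The Mirg window printed above holds both mature forms of miR-668. These 6 seeds differ from each other and from all other seeds of the cluster, where the 114 mature RefSeq sequences hold 104 different seeds, 10 of which are shared. The labels name no selection for small RNA, so the microRNA rows count reads of unknown length at these places, which may be pieces of the longer transcripts.

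Libraries of the genotype table summed to between 19944644 and 36025046 counts, those of the Pramel7 table to between 10123058 and 30135341, and those of the time course to between 16674526 and 30169626. Levels are given as CPM, the count in a library scaled to a common library size, after the library sizes were adjusted by the trimmed mean of M values. The 8 embryonic stem cell markers summed to 1600 to 3030 CPM over all 34 libraries and none was at 0 in any group. The 8 fibroblast markers, of which Col3a1, Lum, Dcn and Postn were at 0 in WT of the genotype table, summed to 1.25 to 24.7 CPM. Ctbp1 had 1 and 2 counts and Ctbp2 1429 and 1568 in CtbpDKO, against 6293 and 6591 of Ctbp2 in WT. Duxf3, the Dux gene of the tables, was counted 1 and 0 times in the WT libraries, against 40 and 24 times in CtbpDKO and 0 times in both of Ctbp_DuxTKO, so DuxKO is not checked by it. Dppa2 still had 1208 and 1027 counts in Dppa2KO, and Pramel7 had 2, 2, 4 and 2 counts in WT against 0 and 3 in P7KO, so RNA levels do not check these labels either. The P7KO libraries also stood apart in Y-linked genes: Uty had 0 counts in both and Ddx3y 2 in both, against at least 82 and 242 in each of the other 10 libraries of the table, while Eif2s3y had 216 and 315. The part of this in the P7KO results below was not tested.

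The genes were chosen with results of these libraries known. Under an earlier rule that named the 3 called genes with the lowest fold in each comparison, Mirg was named in CtbpDKO against WT, Meg3 in Dppa2KO against WT, and Rian and Meg3 in P7KO against WT. Their values in the WT, CtbpDKO and Dppa2KO libraries and in P7KO against WT are therefore described without a test.

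Meg3, Rian and Mirg were at their highest in WT, at about one order of magnitude less in CtbpDKO, and at or near 0 in Dppa2KO. Meg3 was counted at 17.9 and 20 CPM in the WT libraries, at 1.95 and 1.90 CPM in CtbpDKO, and at 0 counts in both Dppa2KO libraries. Rian was counted at 41.1 and 43.6 CPM in WT, at 4.64 and 4.86 CPM in CtbpDKO, and at 0.165 and 0.0567 CPM in Dppa2KO. Mirg was counted at 18.4 and 19.0 CPM in WT, at 1.40 and 0.922 CPM in CtbpDKO, and at 0.0551 and 0 CPM in Dppa2KO. In none of these genes did the libraries of the 3 groups overlap. CtbpDKO thus kept 10.2% of the WT mean for Meg3, 11.2% for Rian and 6.22% for Mirg. Against 3 counts in each Dppa2KO library, Meg3 was at least 226-fold lower there than in WT. Rian was 379-fold lower in Dppa2KO than in WT (95% exact counting interval 192 to 880), from 8 counts against 2564. Mirg was 669-fold lower (185 to 5530), from 2 counts against 1130. These intervals cover counting error only. In bulk RNA, fewer cells that express a gene and less RNA per cell cannot be told apart.

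Ctbp_DuxTKO lay between WT and CtbpDKO for the 3 RNAs, and DuxKO did for Meg3 and Mirg. Rian was counted at 41.7 and 42.0 CPM in DuxKO, which overlaps its WT libraries. Meg3 and Mirg were lower in DuxKO than in WT without overlap, at 57.8% and 57.4% of the WT mean. In Ctbp_DuxTKO, the 3 RNAs stood at 48.6% (Meg3), 51.1% (Rian) and 24.7% (Mirg) of WT. Their levels there were 4.78-fold (Meg3), 4.55-fold (Rian) and 3.98-fold (Mirg) those of CtbpDKO, the line that shares its Ctbp knockout and still carries Dux. The 6 primitive endoderm markers summed to 131 to 134 CPM in Ctbp_DuxTKO against 37.8 to 39.8 CPM in CtbpDKO, with none at 0, and their part in these levels was not tested. In DKO_Dppa2_KO, Meg3 had 6 and 3 counts, Rian 11 and 16, and Mirg 4 and 7. That is 1.13% to 1.45% of WT, above Dppa2KO and below every other genotype of the table for each of the 3 RNAs. The plot of levels by genotype shows this order.

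**Figure D1:**
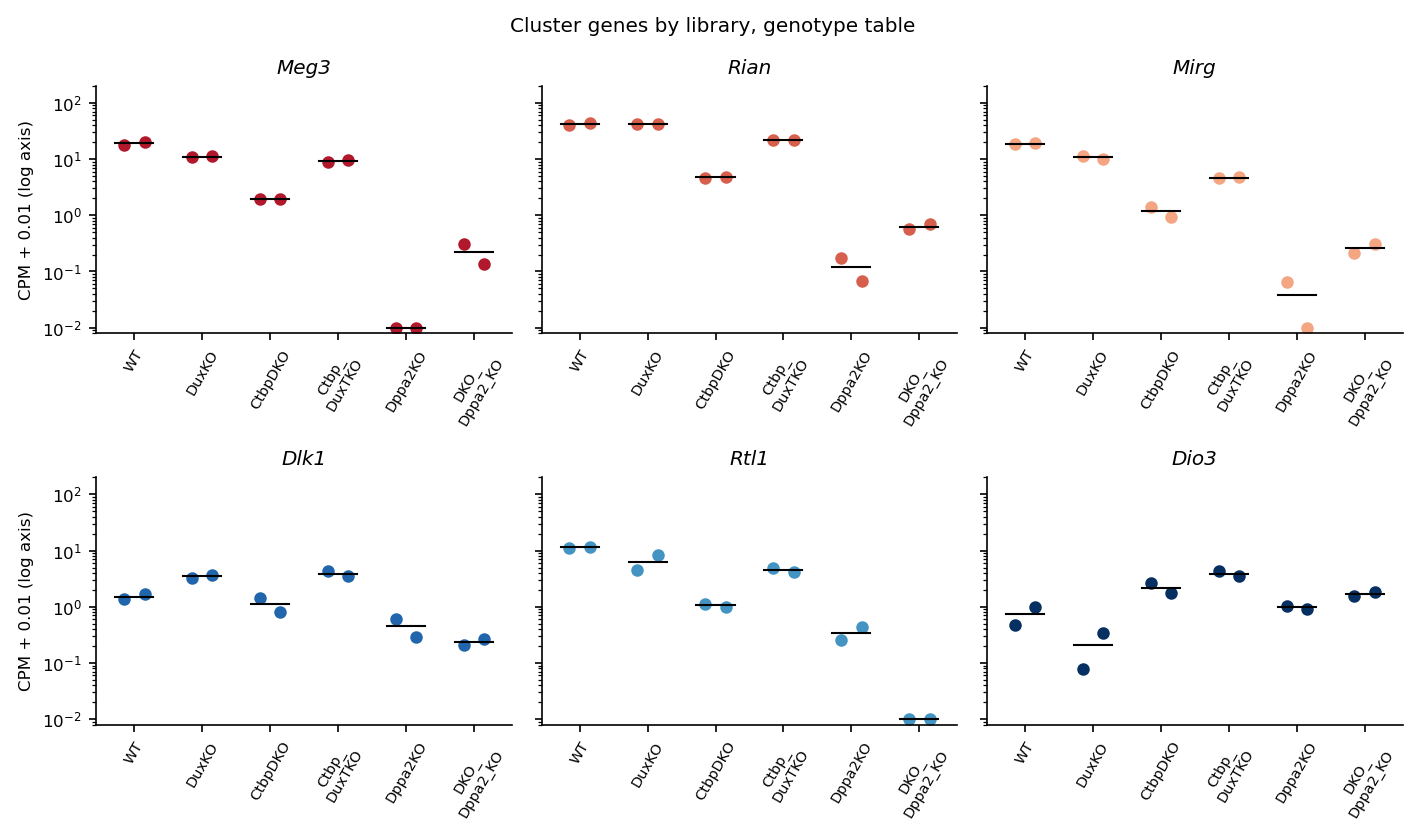
Level of each cluster gene in the 12 libraries of the genotype table, as CPM plus 0.01 on a log axis; points are libraries and lines are group means (n = 2). Meg3, Rian and Mirg are near the bottom of the axis in Dppa2KO and low in DKO_Dppa2_KO, CtbpDKO lies between these and WT, and Dio3 does not follow them.

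The same 3 RNAs were at or near 0 in P7KO, a line of another table. Meg3 was counted at 18.3, 14.9, 30.3 and 23.4 CPM in the 4 WT libraries and at 0 counts in both P7KO libraries. Rian was counted at 103.0, 107.0, 81.6 and 77.2 CPM in WT and at 0 counts in both P7KO libraries. Mirg was counted at 25.4, 25.3, 18.7 and 14.5 CPM in WT and had 2 and 0 counts in P7KO. All 4 WT libraries were far above both P7KO libraries. Against 3 counts in each P7KO library, Meg3 was at least 219-fold and Rian at least 930-fold lower than in WT. Mirg was 643-fold lower (95% exact counting interval 178 to 5310), from 2 counts against 2107. Pramel7 is a PRAME family gene of the preimplantation embryo, and its product is known for lowering DNA methylation in embryonic stem cells. Whether this has a part in the P7KO levels was not tested.

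**Figure D2:**
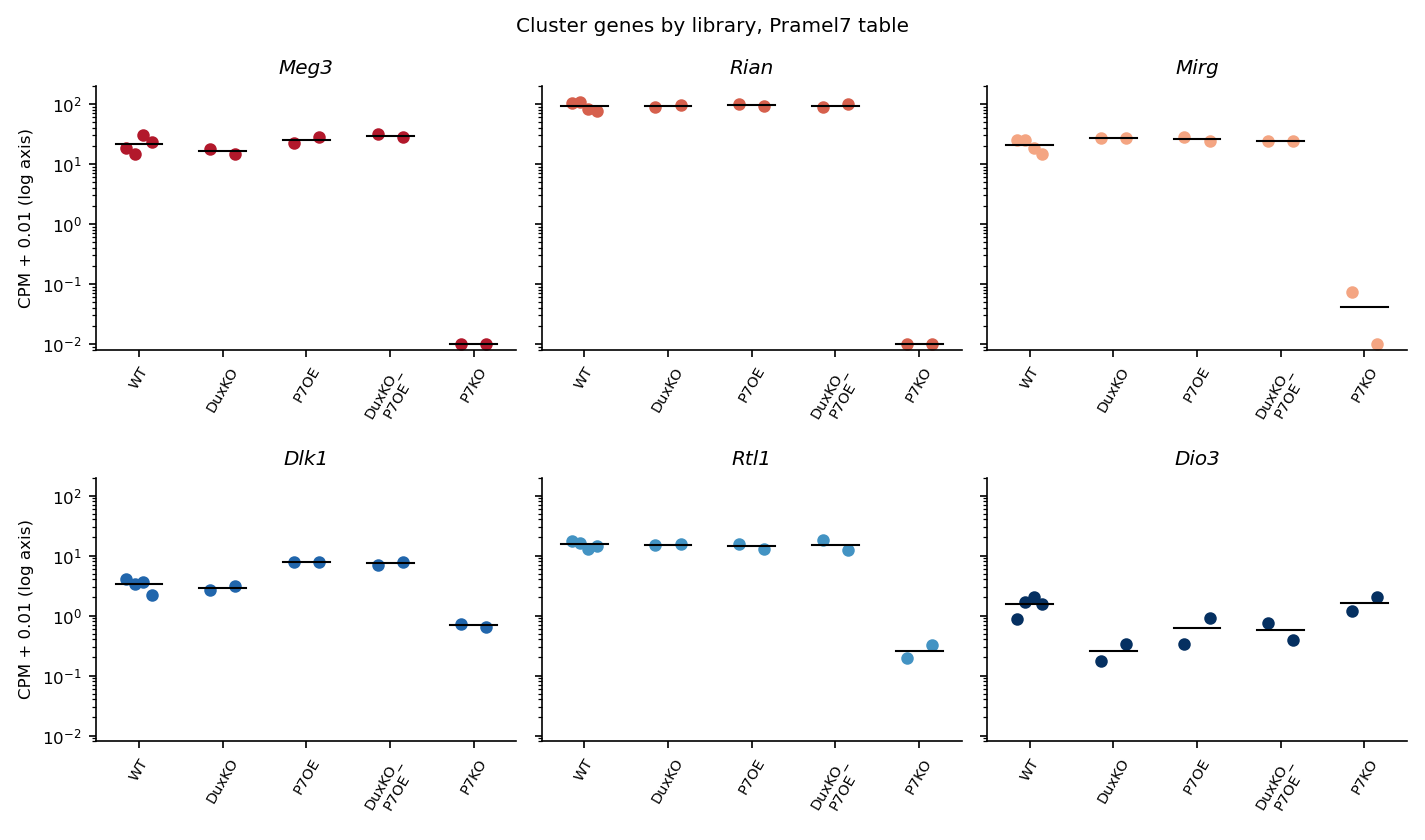
Level of each cluster gene in the 12 libraries of the Pramel7 table, as CPM plus 0.01 on a log axis; points are libraries and lines are group means (n = 4 for WT, otherwise 2). P7KO is at or near the bottom of the axis for Meg3, Rian and Mirg and low for Rtl1, while P7OE and DuxKO_P7OE are above WT for Dlk1.

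The small RNA genes and other transcripts inside the cluster followed the long RNAs. Of 83 further rows that RefSeq places between Dlk1 and Dio3, without the pseudogene Gm3379, 61 are microRNA genes and 13 small nucleolar RNA genes. The 83 rows summed to 360 to 402 counts in WT, 42 to 43 in CtbpDKO, 2 in each Dppa2KO library and 3 to 4 in DKO_Dppa2_KO. In WT 61 to 63 of the rows had at least 1 count, in CtbpDKO 15 to 18, and in Dppa2KO 1 to 2. In the Pramel7 table the rows summed to 338 to 455 counts in WT and 3 to 11 in P7KO. No small nucleolar RNA row had a count in Dppa2KO, DKO_Dppa2_KO or P7KO, against 52 to 64 counts in WT of the genotype table and 58 to 73 in WT of the Pramel7 table. The rows of Mir668, Mir410, Mir382, Mir127, Mir1906-1 and Mir431, whose mature sequences are given above, were at 0 in all 6 of those libraries. Mir410 had 51 counts over both WT libraries of the genotype table and 0 in CtbpDKO. Of the 114 mature microRNA forms 106 are on the plus strand, and rows that lie on 1 transcript with Meg3, Rian or Mirg are not independent of them.

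**Figure D3:**
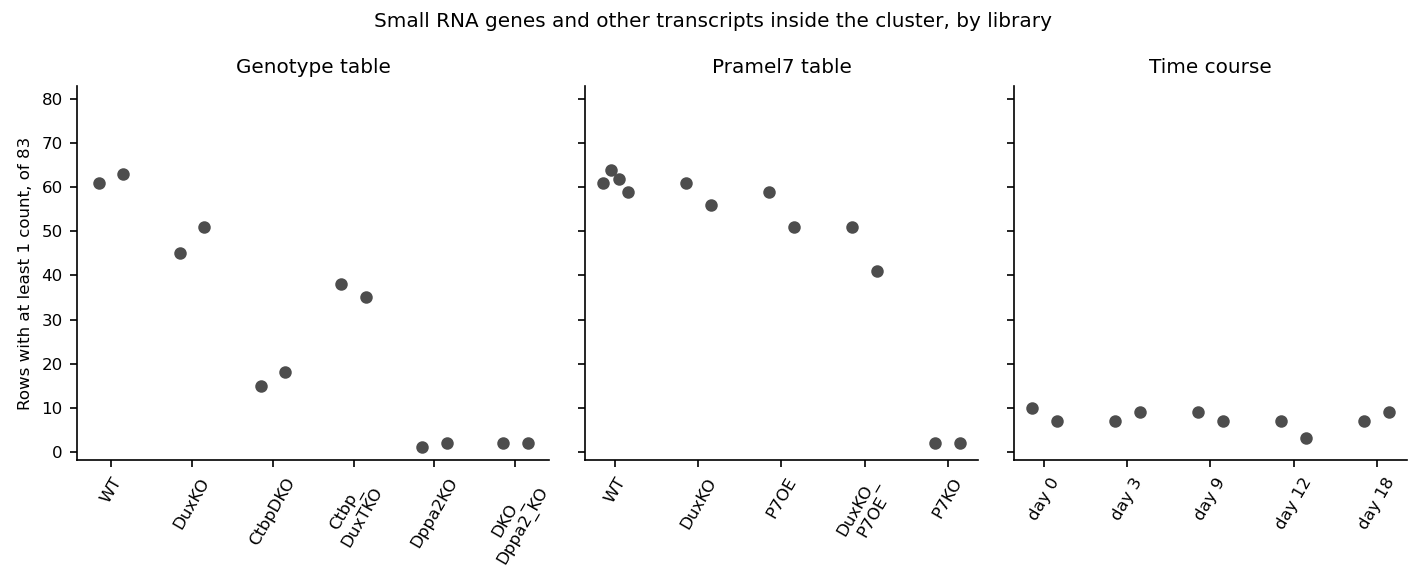
Number of the 83 further rows inside the cluster with at least 1 count, by library, in the 3 tables (y axis, rows). WT libraries hold 59 to 64 such rows, Dppa2KO, DKO_Dppa2_KO and P7KO hold 1 to 2, and no day of the time course holds more than 10.

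Gm3379, a pseudogene between Mirg and Dio3, did not follow them. It had 4228 to 4654 counts in WT, 4359 to 4972 in CtbpDKO and 6050 to 6204 in Dppa2KO, and 1890 to 3855 in WT against 3088 to 3382 in P7KO. Reads of a pseudogene may come from its parent gene, so this row need not measure the locus.

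Genes on either side of the cluster were examined as 10 symbols upstream of Dlk1 and 10 downstream of Dio3, chosen by position. By the quasi-likelihood test of edgeR, adjusted over all genes with the Benjamini-Hochberg method and called under 0.05, 7 of 19 tested neighbours were called in CtbpDKO against WT, 1 higher and 6 lower, where 26.1% of 21193 genes were called. Their median log2 fold change was −0.31, against 0.01 over all genes tested. In Dppa2KO, 2 of 19 were lower and called, where 16.4% of genes were called, with a median of −0.11 against −0.02 for all genes tested. In P7KO, 1 of 20 was lower and called (3 with DESeq2), where 9.48% were called, with a median of 0.08 against 0.01. Against 17.5% of all genes called in DuxKO against WT, 5 of 19 neighbours were called, and against 8.15% in Ctbp_DuxTKO against CtbpDKO, 1 of 19 (3 with DESeq2). The count was 5 of 19 in DKO_Dppa2_KO both against CtbpDKO (15.4% of all genes called) and against Dppa2KO (30.4%). Mok, a protein kinase gene downstream, fell by 3.43 on the log2 scale in CtbpDKO (SE 0.27, edgeR adjusted p 8.98e-07). Zfp839 and Ppp2r5c, also downstream, fell by 0.83 and 0.65 there. In Dppa2KO the called neighbours were Begain, next to Dlk1, with a log2 fold change of −1.24 (SE 0.34, edgeR adjusted p 0.0255), and Yy1, with −0.61 (SE 0.09, edgeR adjusted p 0.000627). In P7KO Cinp had −0.51 (SE 0.14, edgeR adjusted p 0.0377). Over the genes of chromosome 12 with a mean of at least 2 log2 CPM and without the cluster, the median log2 fold change was −0.06 in CtbpDKO, −0.03 in Dppa2KO and −0.08 in P7KO, against −0.0053, 0.05 and 0.04 over all genes at that level.

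**Figure D4:**
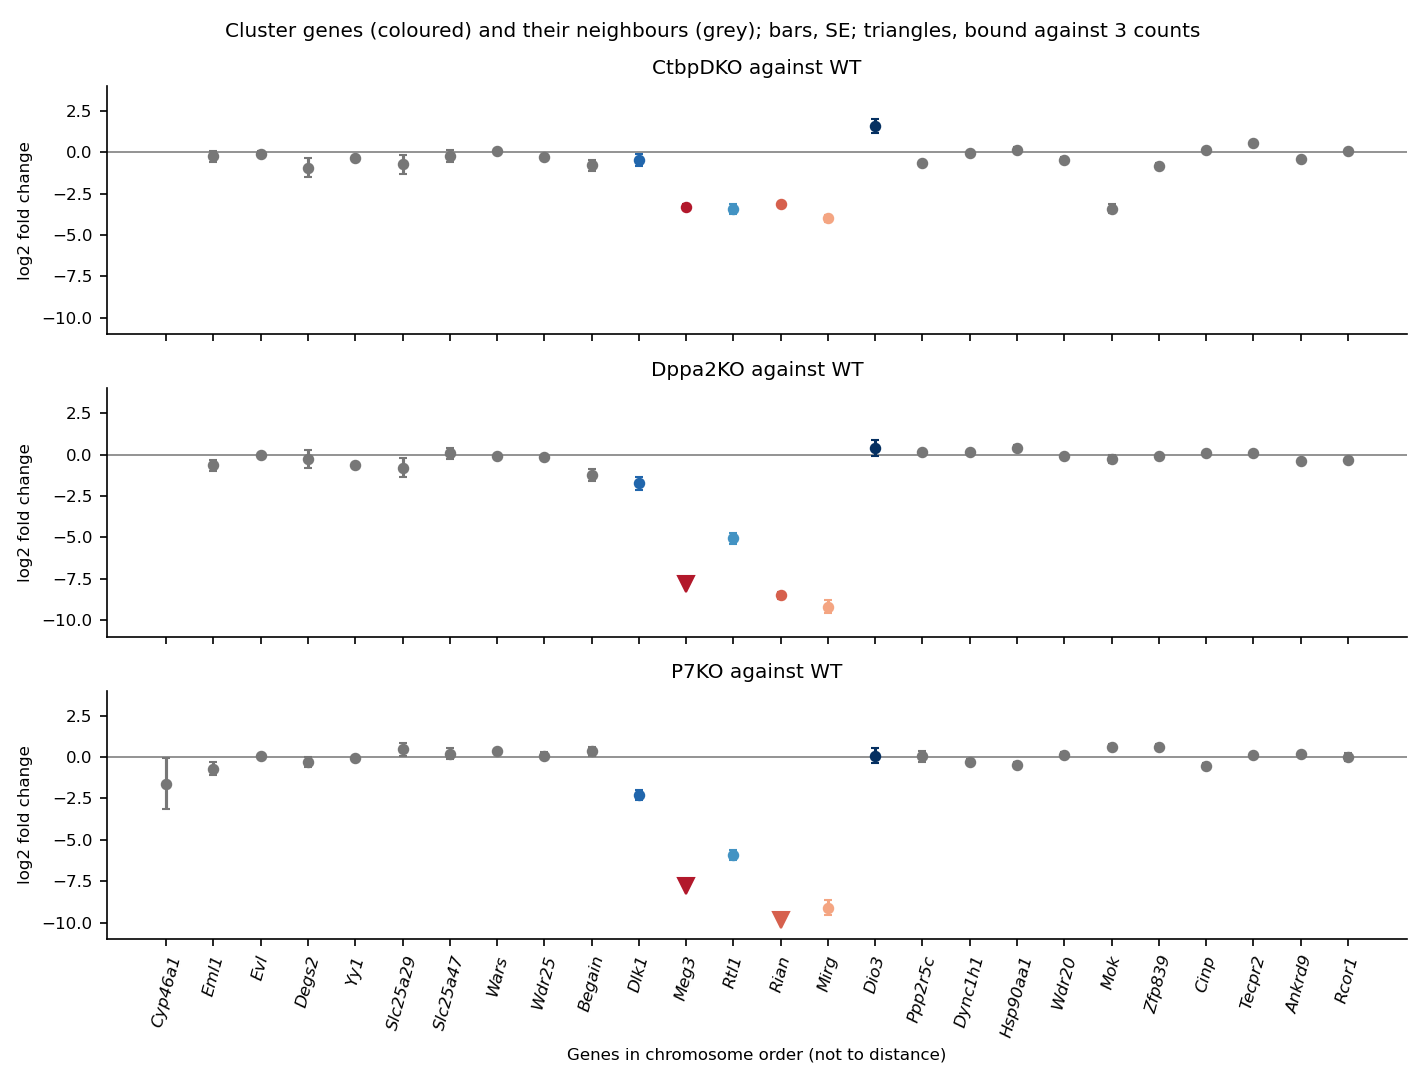
Log2 fold change against WT of the cluster genes (coloured) and their neighbours (grey) in chromosome order, for CtbpDKO, Dppa2KO and P7KO; bars are SE and triangles are bounds against 3 counts per library. The low values run from Dlk1 to Mirg in Dppa2KO and P7KO and from Meg3 to Mirg in CtbpDKO, where Mok lies as low. In Dppa2KO the neighbour Begain, next to Dlk1, is also low, at −1.24 against −1.74 for Dlk1. Dio3 lies at or above 0 in the 3 comparisons.

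The 3 protein-coding genes did not share 1 pattern. Rtl1 was low in the same lines as the maternal RNAs it overlaps. It had 11.1 and 11.6 CPM in WT, 1.13 and 0.978 CPM in CtbpDKO, 0.248 and 0.425 CPM in Dppa2KO and 0 counts in both DKO_Dppa2_KO libraries. Rtl1 was thus higher in Dppa2KO than in DKO_Dppa2_KO, the reverse of Meg3 and Rian. It stood at 9.26% of WT in CtbpDKO and at 2.96% in Dppa2KO. In the Pramel7 table, Rtl1 had 12.9 to 17.8 CPM in WT and 0.189 and 0.313 CPM in P7KO. Dlk1, the ligand-like gene at the other end, was counted at 1.34 and 1.66 CPM in WT, 1.40 and 0.782 CPM in CtbpDKO and 0.606 and 0.284 CPM in Dppa2KO. CtbpDKO and WT overlap for Dlk1, and Dppa2KO lies below both at 29.6% of the WT mean. Dlk1 was above WT in DuxKO, at 3.26 and 3.66 CPM, and in Ctbp_DuxTKO, at 4.25 and 3.50 CPM, and these 2 groups overlap. It was lowest in DKO_Dppa2_KO, at 4 and 6 counts. In P7KO Dlk1 had 0.723 and 0.627 CPM, against 2.18 to 4.09 CPM in WT of that table.

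Dio3 was the gene that the losses did not reach. It had 0.470 and 0.978 CPM in WT, 1.02 and 0.908 CPM in Dppa2KO, 2.65 and 1.73 CPM in CtbpDKO, and 4.29 and 3.50 CPM in Ctbp_DuxTKO. In DKO_Dppa2_KO Dio3 had 1.55 and 1.82 CPM. WT and Dppa2KO overlap, and each line without Ctbp1 and Ctbp2 lies above WT. In P7KO Dio3 had 1.19 and 2.05 CPM, within the range of 0.871 to 2.04 CPM in WT or just above it. The lowest level was in DuxKO, at 2 and 10 counts in the genotype table and 3 and 9 in the Pramel7 table.

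Ctbp_DuxTKO was set against DuxKO, a comparison of 2 lines without Dux. Its fold changes use no WT, CtbpDKO or Dppa2KO library, but those libraries enter the estimate of the spread behind its p-values. Fitted on these 2 groups alone, the same count of 3 genes was called. By edgeR's quasi-likelihood test, 3 of the 6 genes were called, where 41.0% of 21193 genes were called, so the share is close to the background. Rian was lower in Ctbp_DuxTKO, at 21.8 and 21.5 CPM against 41.7 and 42.0 CPM, with a log2 fold change of −0.95 (SE 0.12, edgeR adjusted p 3.36e-05, 2 of 2 libraries below both of DuxKO). Mirg was lower, at 4.51 and 4.72 CPM against 11.3 and 10.1 CPM, with −1.21 (SE 0.20, edgeR adjusted p 0.000389). Dio3 was higher, at 99 and 103 counts against 2 and 10, which is a ratio of 19.1 (95% exact counting interval 10.7 to 37.5), with a log2 fold change of 4.24 (SE 0.53, edgeR adjusted p 2.91e-05). The size rests on few DuxKO counts, since the log2 fold change was 3.52 without DuxKO replicate 1 and 5.73 without replicate 2, both called. Meg3 (8.84 and 9.57 against 10.7 and 11.2 CPM), Dlk1 (4.25 and 3.50 against 3.26 and 3.66 CPM) and Rtl1 (4.94 and 4.11 against 4.49 and 8.21 CPM) were not called. Without DuxKO replicate 1, Rtl1 was also called lower (−0.87, edgeR adjusted p 0.0227). Rian and Mirg fell and Meg3 did not pass the test, and whether their changes differ was not tested. The 6 primitive endoderm markers, all detected, summed to 131 to 134 CPM in Ctbp_DuxTKO against 7.38 to 7.86 CPM in DuxKO, and the 6 trophoblast markers to 163 to 165 against 54.2 to 59.2 CPM, with Elf5 at 0 in DuxKO. Their part in these changes was not tested.

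The Pramel7 table asks the reverse of the knockout, what more Pramel7 does, and whether Dux is needed for it. Pramel7 had 435 and 431 counts in P7OE and 537 and 588 in DuxKO_P7OE. The tests against WT use the same WT libraries as P7KO against WT and are not independent of the choice of genes. In P7OE against WT, 1 of the 6 genes was called by edgeR's quasi-likelihood test, where 19.9% of 20161 genes were called. This was Dlk1, at 7.71 and 7.79 CPM in P7OE and 4.09, 3.41, 3.58 and 2.18 CPM in WT. Both P7OE libraries were above all 4 WT libraries, and the log2 fold change was 1.22 (SE 0.23, edgeR adjusted p 0.00255). Meg3 had 22.3 and 28 CPM, Rian 102.0 and 94.6 CPM, Mirg 28.3 and 24.5 CPM and Rtl1 15.6 and 13.0 CPM in P7OE. Those of Meg3, Rian, Mirg and Rtl1 each overlap WT, and the log2 fold changes of these 4 genes ran from −0.10 to 0.33. Dio3 had 10 and 15 counts in P7OE, with a log2 fold change of −1.40 (SE 0.54, edgeR adjusted p 0.086). It was called when genes were not filtered (adjusted p 0.0495) and without WT replicate 3 (adjusted p 0.0475).

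The 4 WT libraries fall into pairs by replicate number, and the calls move with the pair. Replicates 3 and 4 had less Meg3 (18.3 and 14.9 CPM) and more Mirg (25.4 and 25.3 CPM) than replicates 5 and 6 (30.3 and 23.4 CPM of Meg3, 18.7 and 14.5 CPM of Mirg). With only replicates 3 and 4 as WT, Meg3 was also called higher in P7OE (0.55, edgeR adjusted p 0.0217). With only replicates 5 and 6, Mirg was called higher instead (0.65, edgeR adjusted p 0.0194). Dlk1 was called with either pair. The labels do not say how the pairs differ.

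In DuxKO_P7OE against DuxKO, whose fold changes use no WT library though the spread does, 2 of the 6 genes were called by edgeR's quasi-likelihood test, where 21.4% of 20161 genes were called. Dlk1 was again higher, at 6.88 and 7.91 CPM against 2.68 and 3.14 CPM, with a log2 fold change of 1.33 (SE 0.28, edgeR adjusted p 0.00576). Leaving out DuxKO replicate 3 ended this call (edgeR adjusted p 0.0543). Meg3 was higher, at 31.4 and 28.4 CPM against 18 and 14.6 CPM, with 0.88 (SE 0.28, edgeR adjusted p 0.0434). That call was lost when any 1 of the 4 libraries was left out, with edgeR adjusted p from 0.0881 to 0.231. Rian (0.01), Mirg (−0.15) and Rtl1 (−0.01) had log2 fold changes near 0. Dio3 had 8 and 4 counts against 3 and 9 in deeper libraries, or 0.734 and 0.386 CPM against 0.168 and 0.322 CPM. Its log2 fold change was 1.12 (SE 0.77) and was not called. None of the 6 genes was called between DuxKO_P7OE and P7OE, where 0.0298% of 20161 genes were called. At an unadjusted p under 0.05, 0 of the 6 passed, and DESeq2 called 0. The test of whether overexpression acted differently with and without Dux called none of the 6 with edgeR, where 7.50% of genes were called, 1 at an unadjusted p under 0.05 (Dio3) and 0 with DESeq2. With only WT replicates 5 and 6, it called Meg3 (1.02, edgeR adjusted p 0.0212). This test uses the same WT libraries as P7KO against WT, so it is not independent of the choice of genes. The 6 primitive endoderm markers summed to 74.8 to 78.0 CPM in P7OE against 6.31 to 8.80 CPM in WT, and to 68.3 to 73.3 CPM in DuxKO_P7OE against 7.40 to 9.12 CPM in DuxKO, with none at 0. Their part in the higher Dlk1 was not tested.

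DuxKO against WT in the Pramel7 table called 1 of the 6 genes with edgeR, where 16.7% of 20161 genes were called. This was Dio3, with 3 and 9 counts in DuxKO against 23, 42, 53 and 34 in WT. The ratio was 5.85 (95% exact counting interval 3.25 to 11.6) and the log2 fold change −2.56 (SE 0.60, edgeR adjusted p 0.0111). Without DuxKO replicate 3 the adjusted p was 0.111 and without replicate 4 it was 0.0677. In the genotype table, DuxKO also had less Dio3 than WT, at 2 and 10 counts against 14 and 30. Meg3 had a log2 fold change of −0.42 (edgeR adjusted p 0.283) and Mirg of 0.37 (0.281). With only replicates 5 and 6 as WT, both were called, Meg3 at −0.75 (edgeR adjusted p 0.0113) and Mirg at 0.68 (0.0146). With only replicates 3 and 4, neither was, at −0.08 for Meg3 (edgeR adjusted p 0.804) and 0.05 for Mirg (0.846).

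The time course starts from CtbpDKO cells with low maternal RNAs. Ctbp2 had 1184 and 1328 counts at day 0, 11119 and 11231 at day 3, 8466 and 6774 at day 9, 866 and 1268 at day 12, and 926 and 1646 at day 18. Meg3 had 2.64 and 2.01 CPM at day 0, 3.18 and 4.33 at day 3, 3.04 and 0.873 at day 9, 1.08 and 0.635 at day 12, and 2.15 and 1.73 at day 18. Rian had 5.33 and 3.26 CPM at day 0, 5.72 and 9.33 at day 3, 4.79 and 2.62 at day 9, 1.31 and 1.94 at day 12, and 3.85 and 3.86 at day 18. Both were highest at day 3 and lowest at day 12, by their means, and the day 9 libraries of Meg3 overlap those of days 0, 12 and 18. Mirg had at most 37 counts in any library and Rtl1 at most 26. The highest values of any day, 4.33 CPM for Meg3 and 9.33 CPM for Rian, lie below the lowest WT library of the genotype table (17.9 and 41.1 CPM). The time course was normalized apart from that table, so this is a comparison of levels with no test.

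By edgeR's quasi-likelihood test, none of the 6 genes was called at day 3 against day 0, where 4.99% of 20612 genes were called. The same held for day 9 against day 3 (1.12% called), day 12 against day 9 (3.84%), day 18 against day 12 (0.820%) and day 18 against day 0 (0.514%). At an unadjusted p under 0.05, 2 of the 6 passed in each of the first 4 and 0 in the last, and DESeq2 called 0 in each among the genes it gave an adjusted p, which were all but 1 of the 6 at day 3 against day 0 and all but 3 at day 18 against day 0. Rian had log2 fold changes of 0.81 (SE 0.34) from day 0 to 3, −1.01 (SE 0.34) from day 3 to 9, −1.17 (SE 0.37) from day 9 to 12 and 1.21 (SE 0.37) from day 12 to 18. When genes were not filtered, Rian was called in the last 3 of these and Meg3 at day 12 against day 9. Dio3 ran the other way, with 1.79 and 2.32 CPM at day 0, 0.685 and 1.17 at day 3, 1.17 and 2.53 at day 9, 3.14 and 2.82 at day 12, and 1.64 and 1.66 at day 18. Dlk1 stayed between 0.831 and 1.82 CPM in the 10 libraries. In simulated counts for 19857 genes of this table, 61.5% of changes of 1 and 92.3% of changes of 2 on the log2 scale were recovered at day 3 against day 0. The changed genes were drawn over all levels above a minimum count, so these shares are not those of the low-count cluster genes. Among the cluster genes, SE at this step ran from 0.34 (Rian) to 0.67 (Rtl1).

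**Figure D5:**
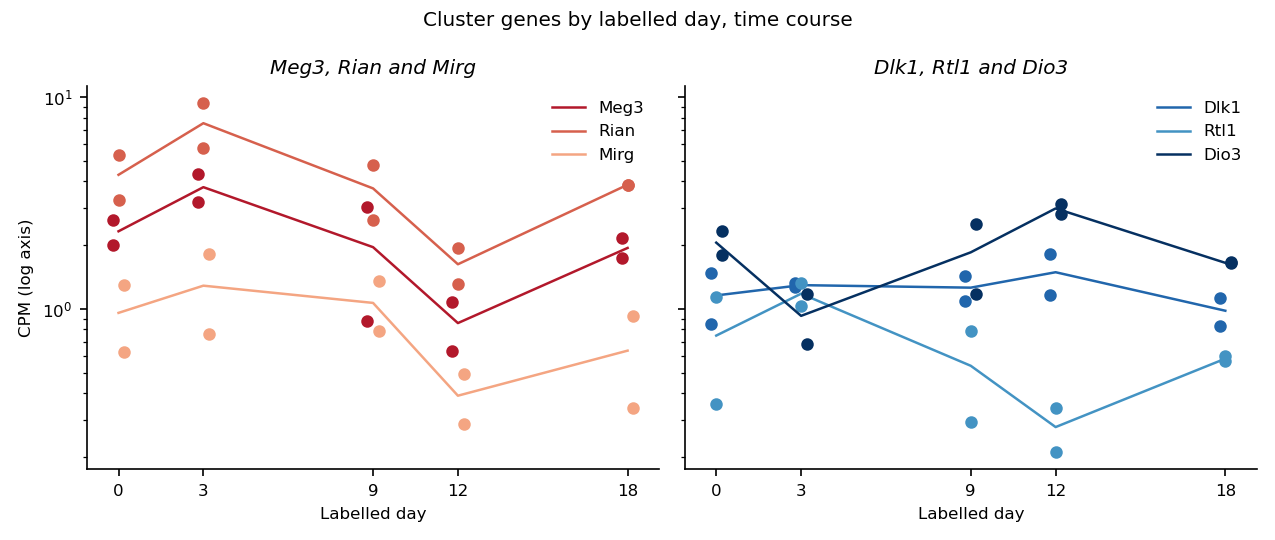
CPM of the cluster genes (log axis) against the labelled day of CtbpDKO cells; points are libraries and lines join the means of 2. Meg3 and Rian are highest at day 3 and lowest at day 12, Dio3 is lowest at day 3 and highest at day 12, and none of these steps was called.

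Genes known to set or keep imprints were examined as a list of 20, which includes DNA methyltransferases, TET oxidases, Polycomb subunits and imprint-binding proteins. By edgeR, 11 of 20 were called in CtbpDKO against WT (8 higher and 3 lower, 26.1% of all genes called), 6 of 20 in Dppa2KO (3 and 3, 16.4%) and 7 of 20 in P7KO (3 and 4, 9.48%). In DuxKO against WT, 10 of 20 were called in the genotype table (8 lower, 17.5% of all genes called) and 6 of 20 in the Pramel7 table (5 lower, 16.7%). In Ctbp_DuxTKO against DuxKO, 14 of 20 were called, 12 of them higher, where 41.0% of all genes were called. Against CtbpDKO, 3 of 20 were called in Ctbp_DuxTKO (3 higher, 8.15%) and 10 of 20 in DKO_Dppa2_KO (9 lower, 15.4%). Against Dppa2KO, 8 of 20 were called in DKO_Dppa2_KO (4 lower, 30.4%). CtbpDKO and Dppa2KO share the WT libraries. Aff3, whose product is known to bind regulatory regions of this cluster, was lower in each: 9.0 ± 0.916 CPM (SD, n = 2) in WT, 2.93 ± 0.346 CPM in CtbpDKO and 2.50 ± 0.165 CPM in Dppa2KO. Its log2 fold change was −1.62 in CtbpDKO (SE 0.18, edgeR adjusted p 2.3e-05), −1.85 in Dppa2KO (SE 0.19, edgeR adjusted p 3.97e-05) and −1.24 in P7KO (SE 0.18, edgeR adjusted p 0.000872). It was also lower in DuxKO, where Rian was at 98.7%, Meg3 at 57.8% and Mirg at 57.4% of WT, with −1.17 in the genotype table (edgeR adjusted p 0.000655) and −1.49 in the Pramel7 table (0.000174). Against CtbpDKO, Aff3 was called higher in Ctbp_DuxTKO (0.86, edgeR adjusted p 0.0143) and lower in DKO_Dppa2_KO (−0.70, edgeR adjusted p 0.0376). It was not called in Ctbp_DuxTKO against DuxKO (0.40) or in DKO_Dppa2_KO against Dppa2KO (−0.48). Zfp445, which encodes an imprint-maintaining zinc finger protein, fell by 1.13 in CtbpDKO and by 0.83 in Dppa2KO on the log2 scale. It was also called lower in DuxKO of the genotype table (−0.66). In P7KO (0.05) and in DuxKO of the Pramel7 table (−0.24) it was not called. Zfp57 was called lower in CtbpDKO (−0.50, edgeR adjusted p 0.0015) and in DuxKO of the genotype table (−0.81, edgeR adjusted p 7.52e-05). For Dppa2KO (0.01), P7KO (0.28) and DuxKO of the Pramel7 table (−0.32), Zfp57 was not called. Dnmt3b, a de novo DNA methyltransferase, was higher in CtbpDKO (1.67) and lower in Dppa2KO (−0.46) and P7KO (−2.05). Dnmt3l, its cofactor, was higher in CtbpDKO (1.60) and lower in P7KO (−1.27), and Dnmt3a was higher in CtbpDKO (1.07) and lower in P7KO (−1.73). In DuxKO, Dnmt3b was called lower in the genotype table (−0.69) and in the Pramel7 table (−2.78), as was Dnmt3l (−1.55 and −2.84). Dnmt3a was called lower in DuxKO of the Pramel7 table only (−0.40). Dppa3, whose product protects imprints in the early embryo, was higher in P7KO (1.40, edgeR adjusted p 0.00984). It was also called higher in DuxKO of the genotype table (1.61, edgeR adjusted p 0.0156). In CtbpDKO (1.01), Dppa2KO (−1.29) and DuxKO of the Pramel7 table (−0.27), Dppa3 was not called. The part of these 20 genes in the levels of the cluster genes was not tested. In the time course 4, 2, 4 and 1 of the 20 were called at the successive steps (4.99%, 1.12%, 3.84% and 0.820% of all genes), and Aff3 was called at none of these.

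The 2-cell markers also differ among these lines. The 8 markers summed to 31.8 to 38.5 CPM in CtbpDKO, with none at 0, to 0 to 0.0551 CPM in Dppa2KO, with 7 of 8 at 0, and to 0 CPM in DKO_Dppa2_KO, with all 8 at 0. WT had 0.522 to 1.01 CPM with Tcstv1 and Tcstv3 at 0, and P7KO had 1.81 to 2.36 CPM with Tcstv1 at 0, against 1.04 to 1.93 CPM in its WT. The 6 trophoblast markers summed to 161 to 173 CPM in CtbpDKO against 39.8 to 42.8 CPM in WT, and to 26.6 to 30.2 CPM in Dppa2KO. In the Pramel7 table they summed to 50.3 to 51.8 CPM in P7KO against 97.9 to 223 CPM in WT. For both lists, CtbpDKO lay above WT and Dppa2KO below it. The 2-cell markers summed to 0 to 0.133 CPM in DuxKO and 0 to 0.173 CPM in Ctbp_DuxTKO, each with 6 of 8 at 0. The trophoblast markers summed to 54.2 to 59.2 CPM in DuxKO, 163 to 165 CPM in Ctbp_DuxTKO and 168 to 172 CPM in DKO_Dppa2_KO. The part of these lists in the levels of the cluster genes was not tested.

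Among 13257 genes with a mean of at least 1 log2 CPM, the 5 most like Meg3 over the 12 genotype libraries by Pearson's r of log2 CPM were Repin1 (0.968), Pxdn (0.949), Gm43041 (0.929), Atp10a (0.927) and Atxn1l (0.926). Rian (0.991) and Mirg (0.981) were closer than any of these in that table. The cluster genes were chosen with results of these libraries known, so this rank is a description and not a test. Over the 10 time course libraries, r with Meg3 was 0.892 for Rian and 0.536 for Mirg, against 0.692 for Gm43041 and 0.58 for Pxdn. Over the 12 Pramel7 libraries, r with Meg3 was 0.990 for Rian and 0.984 for Mirg, and 0.684 for Repin1, 0.864 for Pxdn, 0.13 for Gm43041, −0.545 for Atp10a and −0.385 for Atxn1l. For Dlk1 the 5 were Homer2 (0.946), Tbc1d4 (0.940), Plekhb2 (0.928), Egfr (0.925) and Pxdn (0.919), and over the Pramel7 libraries Pxdn (0.962) and Plekhb2 (0.792) stayed above 0.7. Over the time course libraries all 5 had a negative r with Dlk1, from −0.423 (Plekhb2) to −0.0213 (Pxdn). These values describe libraries that come in pairs of 1 line, and the libraries near 0 weigh most in them. Pxdn, a peroxidase gene of the extracellular matrix, is also on chromosome 12.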

How the data were processed

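RNA was measured in 34 libraries, and the 6 bisulfite libraries named in the labels were not analysed here. The tables that the authors deposited give, for each gene symbol, the raw count in each library. The submitters' processing notes name Trim Galore, HISAT2, featureCounts and Bismark and the build mm10; the annotation and the strand setting are not given in the sources used here. A second deposited genotype table equalled the first in 442208 of 442208 values and was not tested again. 0 columns were left unmatched.

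Counts were tested with edgeR 4.0.16 in R 4.3.3 (quasi-likelihood F test, filterByExpr, trimmed mean of M values, group as the only term, all libraries of a table in 1 fit). The Benjamini-Hochberg adjustment ran over all genes kept (21193 of the genotypes, 20161 of the Pramel7 table, 20612 of the time course), and a gene is called under an adjusted p of 0.05. SE is the size of the log2 fold change divided by the square root of F. A fold against a group at 0 is a bound against 3 counts per library. Ratios at low counts have exact 95% binomial intervals. Reads carry no molecular identifiers here, so intervals and bounds cover counting error only. Groups were tested only within a table.

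The cluster genes and the lists of neighbours, imprint genes and markers were chosen with earlier results of these data known, and no result above is independent of that choice unless said. Named are the 6 genes, the targeted genes and at most 5 called genes of a list per comparison by size of fold change. The 5 genes most like Meg3 and Dlk1 are also named. Genes named for 1 comparison may have their values in others beside it. Uty, Ddx3y, Eif2s3y and Gm3379 were named after their values were seen. Alternatives were DESeq2 1.42.0, 2 other scalings, no filter, fits of only the groups compared, a prior count of 2, each library left out, single pairs of WT libraries and a replicate block. The fit was tested on simulated data with 200 changed genes. Replicate numbers did not pair the libraries.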

Additional observations from a re-analysis of the deposited data

Results flagged for a closer look

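Some changes on loss of Dux ran in opposite directions in cells with and without CtBP. Every DuxKO library of the genotype table lay below every WT library for Meg3, Mirg and Rtl1, and every Ctbp_DuxTKO library lay above every CtbpDKO library. Meg3 had a log2 fold change of −0.79 in the first comparison and 2.26 in the second, a difference of 3.05. Mirg had −0.80 and 1.99, a difference of 2.79. Rtl1, whose reads cannot be told apart from the maternal transcript, had −0.84 and 2.10, a difference of 2.94. Dio3 ran the same way, at −1.83 and 0.83, a difference of 2.65, but with 2 and 10 counts in DuxKO. In the Pramel7 table, Meg3 and Rtl1 had −0.42 and −0.02 in DuxKO against WT and were not called. These differences were not tested, since the levels in WT and CtbpDKO were known when the genes were chosen.

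Mirg had log2 fold changes of opposite sign in DuxKO against WT in the 2 tables. DuxKO was below WT in the genotype table (−0.80) and above all 4 WT libraries in the Pramel7 table (0.37, not called), a difference of 1.17 on the log2 scale. The value of the Pramel7 table rests on WT replicates 5 and 6, and with only replicates 3 and 4 it was 0.05. This difference was not tested, since the tables were fitted apart. No library stood apart from the other 3 WT libraries of the Pramel7 table in any of the 6 genes, by the gap to its nearest neighbour as a share of the range (critical value 0.829).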

How the results depend on the processing

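No log2 fold change of the 6 genes that was called took the other sign under any alternative. In DuxKO against WT of the Pramel7 table, 1 gene was called, 3 with only WT replicates 5 and 6, and 0 to 1 with 1 library left out (0 without DuxKO replicate 3 or 4). In P7OE against WT, 1 gene was called, and 2 when genes were not filtered, with only WT replicates 3 and 4 or with only 5 and 6, and 1 to 2 with 1 library left out. In DuxKO_P7OE against DuxKO, 2 genes were called and 0 to 1 with 1 library left out. The test of overexpression by genotype called 0, and 1 with only WT replicates 5 and 6. Without the filter, the time course called 1 gene at day 9 against 3, 2 at day 12 against 9 and 1 at day 18 against 12, where 0 were called with it. Of the neighbours and imprint genes together, 4 were called in Ctbp_DuxTKO against CtbpDKO, 7 without the filter, 2 when only these groups were fitted and 0 to 3 with 1 library left out (0 without CtbpDKO replicate 2). With 1 library left out, the same lists gave 5 to 8 in Dppa2KO against WT (8 with all, 5 without WT replicate 1), 9 to 10 in DuxKO against WT (15 with all, 9 without WT replicate 1), and 5 to 11 in DKO_Dppa2_KO against CtbpDKO (15 with all, 5 without DKO_Dppa2_KO replicate 2). The cause of these changes was not tested beyond the smaller number of libraries. Where 1 library remained in a group, it was assumed to vary like the others. Libraries with the same replicate number did not deviate together (r from −0.10 to 0.06 in the genotype table, 0 of 15 pairs over 0.1, and 0.016 for WT and DuxKO replicates 3 and 4 of the Pramel7 table). The fit with the replicate block gave 3 called genes in Ctbp_DuxTKO against DuxKO, 1 in DuxKO against WT of the Pramel7 table and 16 in CtbpDKO against WT for the lists, and moved no count of calls by over 1.5 times. CPM on total counts was 0.927 to 1.17 times the level given.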

Other observations

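The ratio of Meg3 to Rian counts, which does not depend on library size, differed between WT libraries of different tables. It was 0.436 and 0.459 in WT of the genotype table, and 0.177, 0.138, 0.371 and 0.303 in WT replicates 3, 4, 5 and 6 of the Pramel7 table. In DuxKO it was 0.257 and 0.267 in the genotype table and 0.202 and 0.150 in the Pramel7 table. In CtbpDKO, where both RNAs were low, the ratio was 0.421 and 0.391, and in Ctbp_DuxTKO it was 0.406 and 0.445. The ratio of Mirg to Rian counts was 0.447 and 0.435 in WT and 0.207 and 0.220 in Ctbp_DuxTKO of the genotype table, and 0.187 to 0.246 in WT of the Pramel7 table. Over the 10 time course libraries the Pearson r of log2 CPM between Meg3 and Dio3 was −0.82, a description of libraries that share a line and come in pairs of 1 day.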
